A study of Mus musculus with 24 samples.

Results

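The livers of newborn mice whose mothers ate too little protein were compared with and without taurine in the mothers' drinking water. The comparison held 6 of the 24 arrays of the study, namely the 3 liver arrays of the group LPtau against the 3 of the group LP, and was made over all 18193 genes that a probe set with a single symbol represented. Calls were sought among all of these genes. The gene lists and 14 of the genes named were chosen beforehand, with earlier results of these data known. All pups were C57BL/6 by their genotype label, and their tissue was frozen on day 0 after birth. The dams of all groups received their diet from day 1 of pregnancy until birth. LP dams ate 8% casein with plain water. LPtau dams ate the same 8% casein diet and drank water with 1% taurine as they wished. The 6 liver arrays of normal protein dams (20% casein) serve here as points of reference, 3 with plain water (NP) and 3 with 1% taurine in the water (NPtau). The 12 arrays of hindleg skeletal muscle from the same 4 diets were used only to set a taurine difference in liver beside that in muscle. Arrays of a group are labelled as biological replicates, with no word on whether their pups had separate dams, so a p-value here speaks only of the spread among these pups. How much taurine a dam drank or a pup received is not given in the labels.

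Taurine, a small sulfonic acid related to cysteine, is not built into protein. The liver makes it from cysteine through cysteine dioxygenase (Cdo1) and cysteine sulfinate decarboxylase (Csad), takes it up through the transporter Slc6a6, and in rodents joins it to bile acids through Baat. A fetus makes little of it and depends on its mother through the placenta. The newborn liver is at the same time a site of blood formation that is closing down and an organ that must switch, when the supply through the cord ends, to making glucose, to handling milk fat and to clearing nitrogen.

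Each value is a log2 expression level per probe set, so a difference of 1 is a doubling of the signal. Of 24 measured genes of hepatocyte identity 23 lay above the median level of all genes in liver, and of 23 genes of skeletal muscle 1 did, which matches the labelled tissue. The median of a liver array ran from 5.35 to 5.39. Read from Xist and a Y-linked gene, 2 of 3 LP pups were female and 1 of 3 LPtau pups was, so sex is partly mixed with taurine. Differences within females and within males are given for some genes and lists only, and lists without them may differ by sex as well. Within females LPtau replicate 2 was the only LPtau array, and within males LP replicate 2 was the only LP array. Such values therefore cannot tell sex from the single array. LP replicate 1 stood apart from the other LP arrays, with an SD of 0.312 from its group mean over all genes against 0.185 and 0.212 for LP replicates 2 and 3. In the normal protein groups NPtau replicate 2 stood apart likewise (0.307). Because each group has 3 arrays, list medians of at least 0.1 in size over the 6 arrays are given with leave-out values. These are the values with each of the 6 arrays left out, naming each array that moved the median by over 1.5 times. Smaller medians often stand without them, and some change sign. That of the aldo-keto and hydroxysteroid reductases ran from -0.05 to 0.14.

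In LPtau livers 9 genes rose and 3 fell against LP (limma, Benjamini-Hochberg adjusted p under 0.05), which is 0.0495% and 0.0165% of the genes tested. The rises were led by enzymes that act on steroids, fatty acids and foreign compounds, namely Akr1c6, Sult3a1 and Cyp2j5, and included Klf10, Serpina7, Sox4, Fars2, Abca8b and Rhbdd1. The falls were Hal, Pde6c and Slc23a3. Without regard to a test, all LPtau values lay above all LP values for 1231 genes (6.77%) and below them for 1276 (7.01%), and these shares are the background for the gene groups described further on. An unadjusted p under 0.05 held for 939 genes higher and 604 lower in LPtau. A difference of at least 1 was found for 153 genes higher and 36 lower, although the median over all genes was -0.01.

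The count of 12 depended on single arrays. It was 269 without LP replicate 1, 1 without LP replicate 2 and 0 without LP replicate 3. Without LPtau replicates 1, 2 and 3 it was 1, 0 and 0. The normal protein arrays enter the count through the shared estimate of the spread alone, and it was 0 without each of the 3 NP replicates and 6, 38 and 5 without NPtau replicates 1, 2 and 3. With the sex of the pup as a covariate 4 genes passed, namely Abca8b, Akr1c6, Fars2 and Sox4. Each of the 12 genes had the same sign within female and within male arrays and in each of the 21 or 22 alternative settings of the analysis run for it. In each gene all LPtau values lay on 1 side of all LP values. Its sign therefore could not change within a sex or with an array left out, and the agreement there is no further support. A given gene remained called in only 5 to 12 of the 21 or 22 settings.

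Among the called genes, the promoters of the 3 largest rises and of the largest fall are printed to place these genes in the genome. Each run is the 250 bases before the start of the gene, 5′ to 3′ on the gene's own strand, from RefSeq on GRCm38.p6, with capitals for matches on either strand to the motifs searched. That of Akr1c6 lies at chr13:4434093-4434342 on the plus strand, that of Sult3a1 at chr10:33857472-33857721 on the plus strand, that of Cyp2j5 at chr4:96664120-96664369 on the minus strand and that of Slc23a3 at chr1:75133891-75134140 on the minus strand.
Akr1c6: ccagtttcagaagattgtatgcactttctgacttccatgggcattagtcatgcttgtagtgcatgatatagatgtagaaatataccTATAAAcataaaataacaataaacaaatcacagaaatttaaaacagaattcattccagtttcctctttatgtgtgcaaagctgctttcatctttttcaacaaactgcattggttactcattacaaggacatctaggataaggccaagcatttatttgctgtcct
Sult3a1: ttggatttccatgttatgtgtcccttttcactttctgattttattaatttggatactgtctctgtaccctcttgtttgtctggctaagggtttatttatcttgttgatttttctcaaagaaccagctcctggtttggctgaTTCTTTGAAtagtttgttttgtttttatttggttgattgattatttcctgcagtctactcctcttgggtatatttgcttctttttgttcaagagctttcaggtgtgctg
Cyp2j5: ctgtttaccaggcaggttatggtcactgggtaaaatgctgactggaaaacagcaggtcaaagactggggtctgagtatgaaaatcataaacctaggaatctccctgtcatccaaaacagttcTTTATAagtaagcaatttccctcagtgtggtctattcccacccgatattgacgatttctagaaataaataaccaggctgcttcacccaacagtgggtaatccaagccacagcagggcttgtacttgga
Slc23a3: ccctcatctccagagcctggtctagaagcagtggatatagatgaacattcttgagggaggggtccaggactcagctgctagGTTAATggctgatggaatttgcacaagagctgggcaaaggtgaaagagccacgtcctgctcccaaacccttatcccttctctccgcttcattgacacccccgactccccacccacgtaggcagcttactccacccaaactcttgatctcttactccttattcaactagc

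The motifs searched were TATAAA (the letters of a TATA box), TTCNNNGAA (bound by STAT factors), TGACGTCA (bound by CREB and CREM), AGAACA (bound by the glucocorticoid receptor), GTTAAT (part of the site of the hepatocyte factor HNF1) and GGGCGG (bound by SP1). Motifs may overlap one another, and a match is a description of the letters. TATAAA stood 164 bases before the start in Akr1c6 and, on the opposite strand as TTTATA, 128 bases before it in Cyp2j5. TTCNNNGAA stood 109 bases before the start in Sult3a1, and GTTAAT 169 bases before it in Slc23a3. Of the 12 called genes 10 had a promoter in the table. TATAAA occurred in 4 of these 10 and in 9.02% of the 14452 promoters of genes tested. TTCNNNGAA occurred in 1 against 6.3% of all, GTTAAT in 2 against 4.69% and GGGCGG in 2 against 49.9%. TGACGTCA and AGAACA occurred in 0 of the 10, against 2.27% and 12.5% of all promoters.

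Akr1c6, an aldo-keto reductase that interconverts active and inactive sex steroids, had the largest difference of the genes called. Its log2 values were 6.03, 6.51 and 6.67 in LP and 9.41, 9.29 and 9.81 in LPtau. The lowest LPtau array stood far above the highest LP array, and LPtau lay at the level of the normal protein arrays, at 9.01, 8.34 and 9.22 in NP and 7.80, 9.45 and 9.41 in NPtau. Akr1c6 rose by 3.10 (SE 0.40, limma adjusted p of 0.0401), an 8.57-fold difference. Sult3a1, a cytosolic sulfotransferase, read 4.37, 4.46 and 3.97 in LP and 6.91, 7.15 and 6.55 in LPtau, against 6.90, 6.74 and 6.54 in NP and 5.80, 7.46 and 6.30 in NPtau. Its LP values lay below the median of all genes, among dim signals that RMA compresses, and no other diet reached down to them. Sult3a1 rose by 2.61 (SE 0.34, limma adjusted p of 0.0401), and no fold is given against such dim values. Cyp2j5, a P450 of the arachidonic acid epoxygenase family, read 6.99, 6.12 and 5.75 in LP and 8.19, 8.07 and 8.56 in LPtau. It rose by 1.99 (SE 0.30, limma adjusted p of 0.0498), or 3.97-fold, with LP replicate 1 the nearest to the LPtau arrays.

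Over the families of these 3 enzymes the differences had both signs. Of the aldo-keto and hydroxysteroid reductases 12 of 23 had a positive difference (median 0.05, against -0.01 over all genes), and 1 was called. Akr1c20, a neighbour of Akr1c6 in sequence and function, had values of 4.73, 5.35 and 5.86 in LP and 7.06, 6.91 and 7.18 in LPtau and a difference of 1.73 (SE 0.41), which did not pass, and 1 of its 2 probe sets had that sign. Hsd17b6, which oxidises androgens, had 1.87 (SE 0.43), also with 1 of 2 probe sets of that sign. Of the sulfotransferases 5 of 13 were positive (median -0.04). Sult1a1, Sult1b1 and Sult2a2 had differences of -0.56 (SE 0.16), -0.91 (SE 0.26) and -1.60 (SE 0.69), all with the LPtau values below the LP values and none called. Sult1a1 is the main phenol sulfotransferase, and Sult2a2 belongs to the family that sulfates steroids and bile acids. Of the P450 enzymes 31 of 52 were positive (median 0.04), with Cyp2e1, which oxidises ethanol and ketones, at 1.17 (SE 0.44) and Cyp2a12 at -0.78 (SE 0.26). Of the glutathione and glucuronosyl transferases 13 of 31 were positive (median -0.07). All LPtau values lay above the LP values for 3 genes (9.68%) and below for 7 (22.6%), against 6.77% and 7.01% over all genes. Gstt3 had values of 8.21, 9.16 and 8.69 in LP and 7.45, 7.10 and 5.92 in LPtau, a difference of -1.86 (SE 0.36), and Gsta2 had -1.37 (SE 0.28). The Gsta2 values in LPtau lay below the lowest liver array median of 5.35, among dim signals that RMA compresses.

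**Figure D1:**
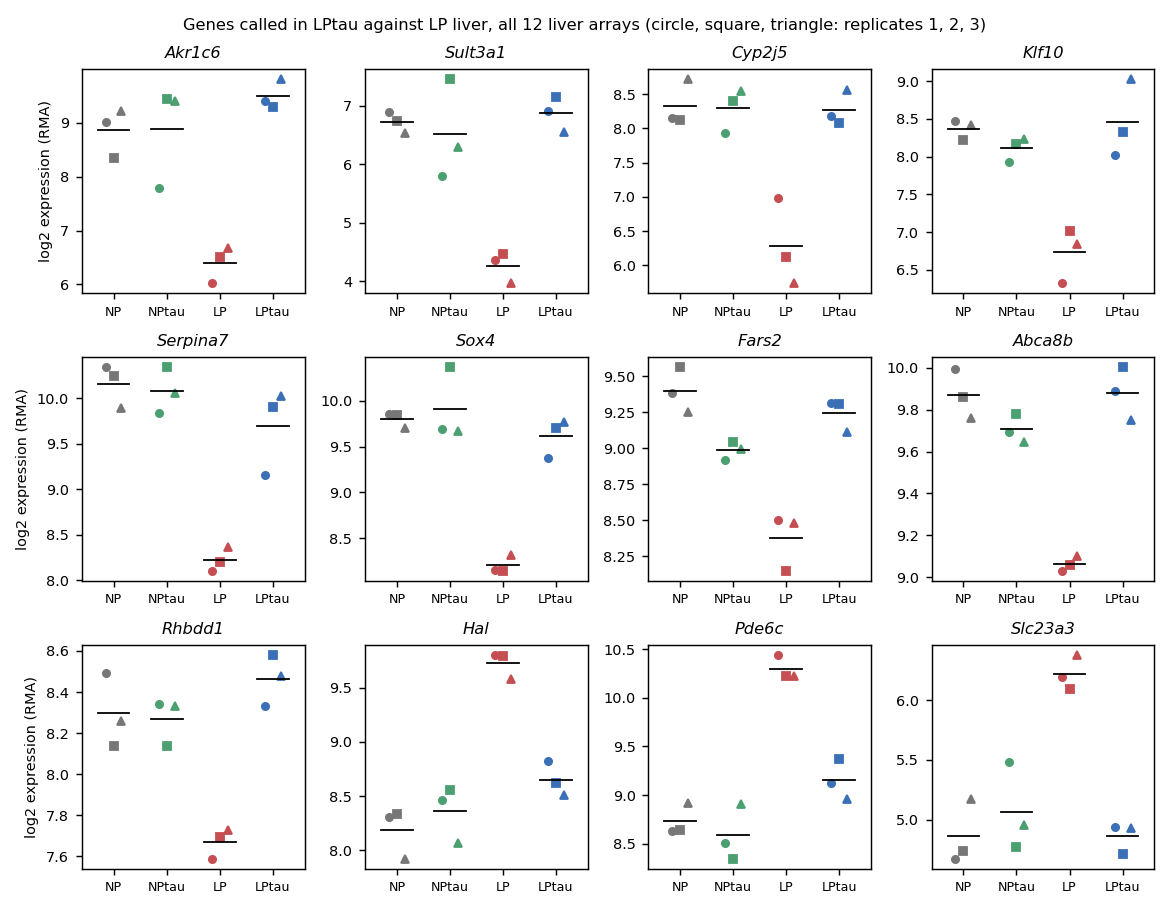
The log2 expression level (vertical axis, RMA) of each of the 12 called genes is shown in every liver array by diet, with circles, squares and triangles for replicates 1, 2 and 3 and a line at the group mean. In each panel the 3 LP arrays stand apart from the 3 LPtau arrays, for example at 6.03 to 6.67 against 9.29 to 9.81 for Akr1c6 and at 9.58 to 9.80 against 8.51 to 8.82 for Hal.

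Serpina7, the thyroxine-binding globulin that carries thyroid hormone in plasma, read 8.11, 8.20 and 8.37 in LP and 9.16, 9.90 and 10.03 in LPtau. LPtau replicate 1 was the lowest of its group and still above every LP array. Serpina7 rose by 1.47 (SE 0.22, limma adjusted p of 0.0498). The thyroid hormone list as a whole differed little (13 of 20 positive, median 0.06), with the thyroid target Me1, the malic enzyme, at 1.24 (SE 0.27) as the other large difference. Of the plasma proteins, carriers and lipoproteins 29 of 42 were positive (median 0.12; 0.04 without LP replicate 3, 0.06 without LPtau replicate 2 and 0.08 to 0.13 without any other array). Itih1, a serum protein that binds hyaluronan, read 9.77, 9.98 and 9.82 in LP and 10.54, 10.55 and 10.80 in LPtau, and its difference of 0.77 (SE 0.13) had a limma adjusted p of 0.0721. Shbg, the carrier of sex steroids, had -1.06 (SE 0.22). Serpina6, the carrier of glucocorticoids, read 5.27, 7.59 and 9.15 in LP and 5.01, 5.07 and 5.11 in LPtau. Its LPtau arrays were alike while the LP arrays were spread widely, with LP replicate 1 next to the LPtau arrays. The LPtau values and that of LP replicate 1 lay below the lowest liver array median of 5.35, among dim signals that RMA compresses, so their likeness says little. The difference of -2.28 (SE 0.82) did not pass.

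Slc23a3, a membrane protein of the vitamin C transporter family, read 6.19, 6.09 and 6.38 in LP and 4.93, 4.71 and 4.93 in LPtau, with 4.67, 4.74 and 5.17 in NP and 5.48, 4.77 and 4.95 in NPtau. It fell by 1.36 (SE 0.19, limma adjusted p of 0.0483), and LP alone stood above the other diets. The LPtau and NP values and most NPtau values lay below the lowest liver array median of 5.35, among dim signals that RMA compresses. How alike the other diets were therefore says little. Abca8b, an ATP-binding cassette transporter, read 9.03, 9.06 and 9.10 in LP and 9.89, 10.004 and 9.75 in LPtau. The LP arrays lay close to one another, and Abca8b rose by 0.82 (SE 0.10, limma adjusted p of 0.0401). Among other solute carriers of the liver 23 of 41 were positive (median 0.04). Slc25a47, a mitochondrial carrier of the liver, had 1.31 (SE 0.27), and Slc47a1, which exports organic cations, had -0.91 (SE 0.27). Neither passed.

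Sox4, a transcription factor of developing tissue that also marks immature bile duct cells, read 8.16, 8.15 and 8.32 in LP and 9.38, 9.71 and 9.77 in LPtau. It rose by 1.41 (SE 0.18, limma adjusted p of 0.0401), and 7 of its 8 probe sets had the same sign. The size rested on the brightest probe set: with the mean over the probe sets of a gene the log2 difference of Sox4 was 0.47, with a limma adjusted p of 0.371. Of the other markers of bile duct cells Cldn7, a tight junction protein, had 0.61 (SE 0.21) and Jag1, a Notch ligand, had 0.85 (SE 0.38), and neither passed. The whole list had 15 of 19 positive (median 0.37; 0.18 without LP replicate 1, 0.23 without LPtau replicate 2, 0.20 without LPtau replicate 3 and 0.32 to 0.42 without any other array). Fars2, the phenylalanine tRNA synthetase of mitochondria, read 8.50, 8.15 and 8.48 in LP and 9.31, 9.31 and 9.11 in LPtau and rose by 0.87 (SE 0.12, limma adjusted p of 0.0498), with both of its probe sets of that sign. Rhbdd1, a protease of the endoplasmic reticulum membrane, read 7.59, 7.69 and 7.73 in LP and 8.33, 8.58 and 8.48 in LPtau and rose by 0.79 (SE 0.12, limma adjusted p of 0.0498). Pde6c, known as the cyclic GMP phosphodiesterase of cone photoreceptors, read 10.44, 10.22 and 10.22 in LP and 9.12, 9.37 and 8.96 in LPtau and fell by 1.14 (SE 0.16, limma adjusted p of 0.0483). Its LPtau values lay between those of LP and the normal protein levels of 8.63, 8.64 and 8.92 in NP and 8.51, 8.35 and 8.91 in NPtau.

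Hal, the histidine ammonia lyase that opens histidine breakdown, read 9.80, 9.79 and 9.58 in LP and 8.82, 8.62 and 8.51 in LPtau. It fell by 1.07 (SE 0.16, limma adjusted p of 0.0498) and in LPtau stood above most of the normal protein arrays, at 8.31, 8.33 and 7.92 in NP and 8.47, 8.56 and 8.07 in NPtau. Among the genes of amino acid breakdown it was the single call, and 16 of 53 had a positive difference (median -0.09; -0.16 to -0.06 with 1 array left out). In this list 2 genes (3.77%) had all LPtau values above the LP values and 16 (30.2%) had all below, against 6.77% and 7.01% over all genes. Gpt, the alanine aminotransferase that turns alanine into pyruvate, read 9.30, 9.75 and 9.43 in LP and 8.27, 8.35 and 7.63 in LPtau. The highest LPtau array lay well below the lowest LP array, and the difference of -1.41 (SE 0.23) had a limma adjusted p of 0.0721. Prodh, which opens proline breakdown, had -0.80 (SE 0.19), and Afmid, of tryptophan breakdown, had -0.47 (SE 0.15). Genes of the urea cycle and ammonia handling had 7 of 15 positive (median -0.03). The channel Aqp9, which lets glycerol and urea through, was at 0.99 (SE 0.19) and did not pass.

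Klf10, a zinc finger factor that TGF-beta, fasting and cyclic AMP induce, read 6.33, 7.02 and 6.85 in LP and 8.02, 8.32 and 9.02 in LPtau and rose by 1.72 (SE 0.24, limma adjusted p of 0.0483). Rab30, a small GTPase of the Golgi, read 7.88, 8.00 and 7.82 in LP and 11.38, 10.34 and 11.21 in LPtau. Its LP arrays were nearly identical and lay far below LPtau, but NPtau was also lower than NP (11.34, 11.40 and 10.64 in NP and 10.35, 7.90 and 9.94 in NPtau), and the difference of 3.08 (SE 0.52) had a limma adjusted p of 0.0740. Crem, a cyclic AMP responsive repressor and activator, read 6.61, 5.19 and 5.68 in LP and 8.22, 7.12 and 9.37 in LPtau, a difference of 2.41 (SE 0.54) with all 4 probe sets of that sign. The Crem difference was 0.97 within females and 3.61 within males. Pde4d, which degrades cyclic AMP, had 1.69 (SE 0.32) with 1 of 2 probe sets of that sign. Klf10 was the single call among the 38 measured genes of the cyclic AMP and fasting list, of which 30 were positive (median 0.33; 0.04 without LP replicate 1, 0.20 without LPtau replicate 1 and 0.32 to 0.47 without any other array). Within females the median of this list was 0.43 and within males 0.12. Ppargc1a and Pdk4, which fasting induces in liver, had 0.04 (SE 0.64) and -0.20 (SE 0.58), with widely spread arrays in each group, and Cpt1a, the gate of fatty acid oxidation, had 0.03 (SE 0.26). The signs of these last 3 differences changed with the setting of the analysis.

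Junb, a subunit of the AP-1 factor, read 7.95, 6.77 and 6.17 in LP and 9.05, 9.51 and 8.68 in LPtau, a difference of 2.11 (SE 0.62), and Fosl2, another subunit, had 1.28 (SE 0.29). Neither passed, although both had all LPtau values above the LP values. Of the immediate early genes 29 of 37 were positive (median 0.35; 0.23 without LPtau replicate 1, 0.23 without LPtau replicate 2, 0.54 without LPtau replicate 3 and 0.27 to 0.40 without any other array), and Klf10 was the single call. Within females 32 were positive (median 0.52) and within males 20 (median 0.14). Dusp9, a phosphatase that switches off ERK kinases, read 7.72, 6.47 and 7.17 in LP and 5.76, 5.41 and 5.31 in LPtau, and its difference of -1.63 (SE 0.26), with all 3 probe sets of that sign, had a limma adjusted p of 0.0671. Other phosphatases of that family pointed the other way, with Dusp2 at 0.61 (SE 0.14) and Dusp4 at 0.42 (SE 0.16).

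**Figure D2:**
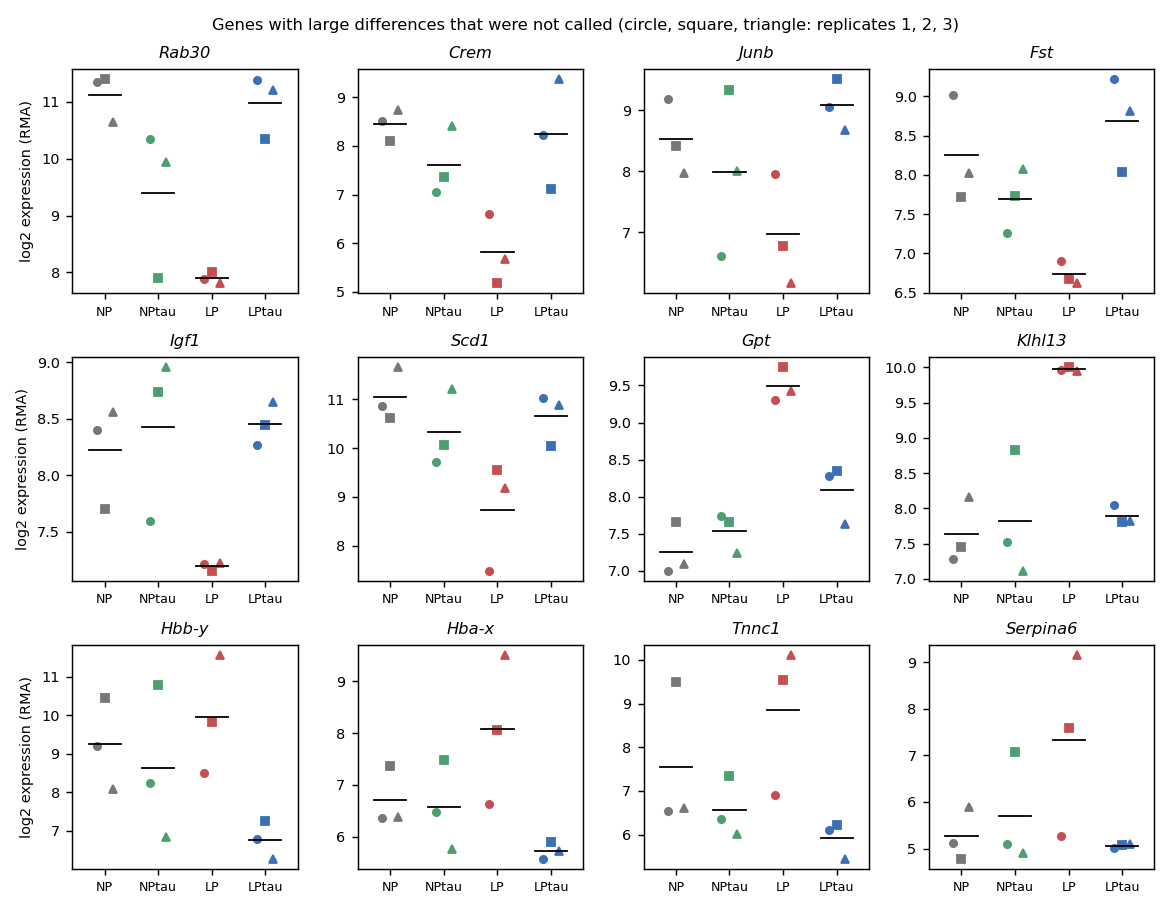
The log2 expression level (vertical axis, RMA) is shown by diet for 12 genes with large differences between LPtau and LP that limma did not call, with a symbol for each replicate and a line at the group mean. Rab30 and Igf1 have LP arrays close together and below LPtau. Hbb-y, Hba-x, Tnnc1 and Serpina6, and among the higher genes Crem, Junb and Scd1, have LP arrays spread over more than a log2 unit.

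Genes of TGF-beta and BMP signalling, the ligands and antagonists that govern matrix and growth in liver, were mostly higher in LPtau. Of 44 measured 37 had a positive difference (median 0.33; 0.24 to 0.32 with 1 array left out), and Klf10 was the single call. In 14 genes (31.8%) all LPtau values lay above the LP values and in 0 all below, against 6.77% and 7.01% over all genes. Fst, follistatin, which binds and blocks activin, read 6.91, 6.68 and 6.63 in LP and 9.22, 8.04 and 8.81 in LPtau, a difference of 1.95 (SE 0.36) with a limma adjusted p of 0.0966. The ligand Tgfb3 read 4.62, 5.15 and 4.88 in LP and 7.37, 6.04 and 6.50 in LPtau, a difference of 1.75 (SE 0.38). The receptor Tgfbr1 had 0.62 (SE 0.14) with 2 of 3 probe sets of that sign. Muscle gave the list a median of -0.10 for the same diets.

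Matrix genes pointed the same way as those of the cells that make matrix and vessels. Of genes of collagen processing and other matrix 58 of 65 were positive (median 0.40; 0.32 to 0.48 with 1 array left out). All LPtau values lay above the LP values for 16 genes (24.6%) and below for 0, against 6.77% and 7.01% over all genes. Postn, a matrix protein of growing tissue, read 8.11, 8.61 and 8.90 in LP and 9.47, 9.62 and 9.92 in LPtau, a difference of 1.13 (SE 0.20). Sparc, which binds collagen, had 0.85 (SE 0.18), and Pcolce2, which speeds the trimming of procollagen, had 1.53 (SE 0.35). Of the collagens 23 of 36 were positive (median 0.10; 0.18 without LPtau replicate 1, 0.0048 without LPtau replicate 3 and 0.07 to 0.15 without any other array). Col5a2, of fibrils, had 1.02 (SE 0.25), and Col4a1, of basement membranes, read 9.82, 10.05 and 9.91 in LP and 10.55, 10.66 and 10.73 in LPtau, a difference of 0.72 (SE 0.19). In these 2 lists limma called 0 genes, and the unadjusted p was under 0.05 for 27 higher and 0 lower other matrix genes and 11 higher and 0 lower collagen genes.

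Smooth muscle and pericyte genes had 18 of 22 positive (median 0.42; 0.29 to 0.44 with 1 array left out). Tagln, an actin-binding protein of smooth muscle, read 7.01, 7.90 and 7.82 in LP and 8.78, 8.81 and 9.67 in LPtau, a difference of 1.51 (SE 0.40). Acta2, smooth muscle actin, had 2.00 (SE 0.53), but the other two of its 3 probe sets had the opposite sign. Endothelial genes had 37 of 41 positive (median 0.35; 0.27 to 0.36 with 1 array left out). All LPtau values lay above the LP values for 15 genes (36.6%) and below for 1 (2.44%), against 6.77% and 7.01% over all genes. Pecam1, a junction protein of all vessels, read 6.94, 6.76 and 6.80 in LP and 7.53, 7.61 and 7.80 in LPtau, a difference of 0.81 (SE 0.14) with a limma adjusted p of 0.0740. Ednrb, the endothelin receptor of sinusoids, had 1.05 (SE 0.22) with all 3 probe sets of that sign. Stellate, mesothelial and fibroblast genes had 29 of 32 positive (median 0.34; 0.27 to 0.40 with 1 array left out), with the PDGF receptor Pdgfrb at 0.57 (SE 0.19) and vimentin (Vim) at 0.58 (SE 0.20). Limma called 0 genes of these 3 lists, and the unadjusted p was under 0.05 for 7 higher and 0 lower smooth muscle genes, 13 higher and 1 lower endothelial genes and 8 higher and 0 lower stellate genes. In a whole liver more cells of a type and more RNA per cell cannot be told apart.

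The mean of a list in each array shows how evenly these differences were spread. Relative to the LP mean, the endothelial list stood at 0.26, 0.32 and 0.57 in the LPtau arrays against 0.04, -0.02 and -0.03 in LP. Each LPtau array lay above each LP array. The stellate list stood at 0.13, 0.48 and 0.52 against -0.07, 0.09 and -0.03, with LPtau replicate 1 next to LP. The smooth muscle list stood at 0.29, 0.42 and 0.66 against -0.12, 0.08 and 0.04. The hepatocyte list differed by less, at 0.16, 0.13 and 0.09 against 0.07, 0.01 and -0.08. What part the share of each cell type had in the differences of single genes was not tested.

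**Figure D3:**
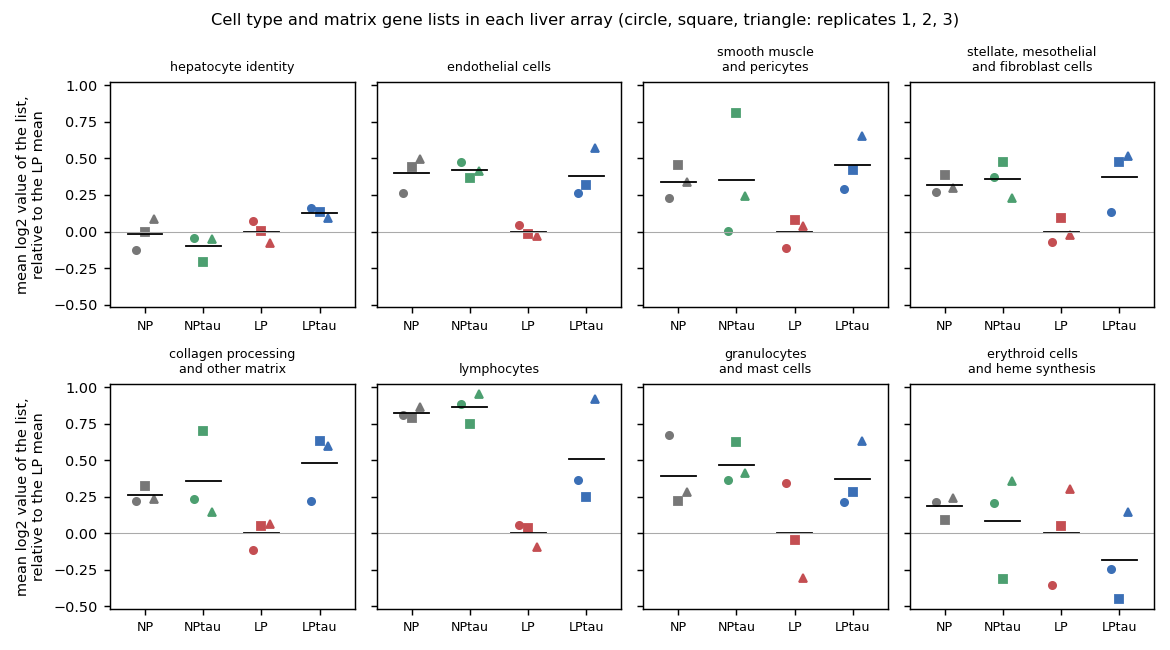
The mean log2 level of 8 gene lists (vertical axis, relative to the mean of the LP arrays) is shown for each liver array by diet, with a symbol per replicate and a line at the group mean. Endothelial, smooth muscle and matrix lists lie higher in all LPtau arrays than in LP, the lymphocyte list is higher in LPtau replicate 3, at 0.92, than in the other LPtau arrays, and the erythroid list is spread widely within LP and within LPtau.

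Markers of white blood cells were also higher in LPtau on balance, though LPtau replicate 3 weighed on several of these lists. Limma called 0 of them, and the unadjusted p was under 0.05 for 12 higher and 0 lower lymphocyte genes, 9 higher and 0 lower granulocyte genes and 4 higher and 2 lower macrophage genes. Lymphocyte genes had 23 of 28 positive (median 0.43; 0.24 without LPtau replicate 3 and 0.37 to 0.55 without any other array), and their mean relative to LP was 0.37, 0.25 and 0.92 in the LPtau arrays against 0.06, 0.04 and -0.09 in LP. Cd79b, a chain of the B cell receptor complex, read 6.89, 6.77 and 5.79 in LP and 7.36, 7.30 and 8.44 in LPtau, a difference of 1.22 (SE 0.33). Bach2, a repressor of B cell maturation, and Ocstamp, a membrane protein first known from osteoclasts, belonged to none of these lists. They were named for the size of their differences. Bach2 had 1.75 (SE 0.49) with 2 of 3 probe sets of that sign, and LPtau replicate 3 was the highest. Ocstamp read 5.74, 6.22 and 6.35 in LP and 7.74, 8.19 and 8.13 in LPtau, a difference of 1.92 (SE 0.35). Granulocyte and mast cell genes had 28 of 32 positive (median 0.47; 0.26 without LP replicate 3, 0.29 without LPtau replicate 3 and 0.36 to 0.60 without any other array), with lactoferrin (Ltf) at 0.75 (SE 0.29). Kupffer cell and macrophage genes had 22 of 28 positive (median 0.16; 0.25 without LP replicate 1, 0.09 without LPtau replicate 1 and 0.12 to 0.23 without any other array) and did not move together. Their median was 0.07 within females and 0.32 within males. The scavenger receptor Marco read 10.09, 10.21 and 10.54 in LP and 9.42, 9.74 and 8.70 in LPtau, a difference of -0.99 (SE 0.23), whereas Clec4f, a lectin of Kupffer cells, had 0.96 (SE 0.27). Megakaryocyte genes had 13 of 18 positive (median 0.22; 0.40 without LP replicate 1, -0.07 without LP replicate 3, 0.34 without LPtau replicate 1, 0.02 without LPtau replicate 3 and 0.23 to 0.28 without any other array).

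Genes that interferon induces had 31 of 33 positive (median 0.50; 0.24 without LPtau replicate 3 and 0.40 to 0.69 without any other array). Of these genes 9 (27.3%) had all LPtau values above the LP values, against 6.77% over all genes, and 0 had all below. The median was 0.25 within females and 0.68 within males. Ifi27l2a read 6.74, 6.35 and 6.72 in LP and 7.49, 7.19 and 8.69 in LPtau, a difference of 1.19 (SE 0.41), and Bst2, which tethers virus particles, had 0.60 (SE 0.21). The mean of the list relative to LP was 0.25, 0.26 and 1.01 in LPtau, so that replicate 3 stood well above the other two, and 0.43, 0.65 and 1.11 in NP. Genes of the cell cycle and DNA replication had 55 of 62 positive (median 0.22; 0.40 without LPtau replicate 2, 0.02 without LPtau replicate 3 and 0.21 to 0.26 without any other array). Only 1 gene (1.61%) had all LPtau values above the LP values, against 6.77% over all genes, and 0 had all below. The positive direction held within males (57 positive, median 0.42) and not within females (15 positive, median -0.17), where LPtau replicate 2 was the only LPtau array. Rrm2, which supplies deoxynucleotides, read 10.85, 10.63 and 10.63 in LP and 11.14, 10.94 and 12.05 in LPtau, a difference of 0.67 (SE 0.28), and LPtau replicate 3 again stood above the rest. Limma called 0 genes of either list, and the unadjusted p was under 0.05 for 12 higher and 0 lower interferon genes and 3 higher and 0 lower cell cycle genes. Over all 18193 genes it was under 0.05 for 939 higher and 604 lower, a share that the higher cell cycle genes do not exceed.

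The embryonic globins were lower in LPtau. Hbb-y, the embryonic beta-like globin, read 8.51, 9.83 and 11.56 in LP and 6.79, 7.25 and 6.28 in LPtau. The groups did not overlap, but the LP arrays alone spanned 8.51 to 11.56, and the difference of -3.20 (SE 0.98) had a limma adjusted p of 0.390. Hba-x, the embryonic alpha-like globin, read 6.64, 8.06 and 9.50 in LP and 5.58, 5.90 and 5.73 in LPtau, a difference of -2.33 (SE 0.62), and Hbb-bh1, a further embryonic beta-like globin, had -0.80 (SE 0.27). Car1, a carbonic anhydrase of red cells, had -1.13 (SE 0.33). These 4 (9.76%) were the genes of the erythroid list of 41 with all LPtau values below LP, against 7.01% over all genes. All LPtau values lay above LP for 0 genes of the list, against 6.77%. The list as a whole had 20 positive (median -0.02; -0.24 to 0.11 with 1 array left out), with 6 positive and a median of -0.33 within females and 21 positive and a median of 0.06 within males. Tnnc1, the troponin C of heart and slow muscle, had the same pattern over arrays as the globins, at 6.91, 9.55 and 10.11 in LP and 6.11, 6.22 and 5.45 in LPtau, a difference of -2.93 (SE 0.88). In each of Hbb-y, Hba-x and Tnnc1 LP replicate 1 was the lowest LP array.

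Genes that make lipid were mostly higher in LPtau. Limma called 0 of them, and the unadjusted p was under 0.05 for 6 higher and 0 lower cholesterol genes and 11 higher and 0 lower fatty acid synthesis genes. For cholesterol synthesis and uptake 26 of 29 were positive (median 0.49; 0.30 without LP replicate 1 and 0.44 to 0.62 without any other array). All LPtau values lay above the LP values for 11 genes (37.9%) and below for 0, against 6.77% and 7.01% over all genes. Within females the median of this list was 0.67 and within males 0.24. Sc5d, of the last steps of the pathway, read 10.58, 10.76 and 10.67 in LP and 11.61, 11.43 and 11.36 in LPtau, a difference of 0.80 (SE 0.26), and Scap, which escorts the sterol-regulated factor SREBP, had 0.49 (SE 0.15). Fdps, which makes farnesyl diphosphate, had 0.94 (SE 0.33) with 1 of 2 probe sets of that sign. Abcg8, which pumps sterols into bile, had 0.71 (SE 0.17). For fatty acid and triglyceride synthesis 27 of 39 were positive (median 0.28; 0.13 without LP replicate 1 and 0.26 to 0.39 without any other array). Scd1, the stearoyl-CoA desaturase, read 7.49, 9.55 and 9.17 in LP and 11.02, 10.05 and 10.89 in LPtau, a difference of 1.91 (SE 0.54). LP replicate 1 was by far its lowest array. Fads2, the first desaturase of polyunsaturated fatty acids, read 8.48, 8.55 and 8.78 in LP and 10.65, 9.92 and 10.16 in LPtau, a difference of 1.64 (SE 0.36) with all 3 probe sets of that sign. Acss2, which turns acetate into acetyl-CoA, had 1.81 (SE 0.45) and Me1, which supplies NADPH, 1.24 (SE 0.27).

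Genes that burn fat were less uniform. Of the fatty acid oxidation and ketone list 26 of 42 were positive (median 0.07; 0.02 to 0.12 with 1 array left out). All LPtau values lay above the LP values for 10 genes (23.8%) and below for 2 (4.76%), against 6.77% and 7.01% over all genes. Fabp1, the fatty acid binding protein of liver, read 13.40, 12.81 and 12.55 in LP and 13.85, 13.60 and 14.07 in LPtau, a difference of 0.92 (SE 0.21). Hadha, of mitochondrial beta-oxidation, had 0.58 (SE 0.14) and Ehhadh, of peroxisomal beta-oxidation, 1.09 (SE 0.35). Acot3, a peroxisomal acyl-CoA thioesterase, read 9.13, 9.31 and 9.57 in LP and 7.87, 7.73 and 7.04 in LPtau, a difference of -1.79 (SE 0.52) in the other direction.

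Of the genes of glucose handling 18 of 27 were positive (median 0.31; 0.13 without LP replicate 1 and 0.29 to 0.41 without any other array). Tkfc, which lets fructose carbon enter glycolysis, read 6.93, 7.37 and 7.06 in LP and 8.04, 7.91 and 8.13 in LPtau, and its difference of 0.91 (SE 0.14) had a limma adjusted p of 0.0523, just short of the threshold. Khk, the ketohexokinase that opens fructose breakdown, read 8.96, 8.88 and 8.89 in LP and 8.52, 8.46 and 8.36 in LPtau, a difference of -0.46 (SE 0.10) in the other direction. Pck2, the mitochondrial form of phosphoenolpyruvate carboxykinase, had 0.94 (SE 0.18), and Gys2, the liver glycogen synthase, had 0.51 (SE 0.12).

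Nuclear genes of the respiratory chain were slightly lower in LPtau. Of complex I genes 4 of 34 were positive (median -0.14; -0.09 without LPtau replicate 3 and -0.17 to -0.12 without any other array). All LPtau values lay above the LP values for 1 gene (2.94%) and below for 10 (29.4%), against 6.77% and 7.01% over all genes. Of genes of the citrate cycle and complexes II to V 5 of 52 were positive (median -0.14; -0.09 without LPtau replicate 3 and -0.17 to -0.11 without any other array). Here 0 genes had all LPtau values above the LP values and 14 (26.9%) had all below. The differences were small and mostly of 1 sign, with Ndufv2 at 11.91, 12.04 and 12.11 in LP and 11.81, 11.65 and 11.52 in LPtau, a difference of -0.36 (SE 0.12), and Sdhd, of complex II, at -0.36 (SE 0.13). Limma called 0 genes of these lists, and the unadjusted p was under 0.05 for 0 higher and 4 lower complex I genes and 0 higher and 4 lower citrate cycle and other complex genes. In muscle the medians of these 2 lists for LPtau against LP were 0.52 and 0.40, and the tissue difference of the lists was not tested.

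Of the complement, lectin and acute phase genes 25 of 36 were positive (median 0.23; 0.14 without LP replicate 1 and 0.18 to 0.28 without any other array). All LPtau values lay above the LP values for 12 genes (33.3%) and below for 2 (5.56%), against 6.77% and 7.01% over all genes. Limma called 0 genes of this list, and the unadjusted p was under 0.05 for 12 higher and 2 lower complement and acute phase genes. C4bp, which restrains complement, read 6.51, 4.79 and 4.84 in LP and 7.46, 7.45 and 7.72 in LPtau, a difference of 2.17 (SE 0.39) with a limma adjusted p of 0.0927. Mbl2, a mannose-binding lectin of plasma, read 9.12, 8.33 and 6.82 in LP and 9.37, 9.58 and 10.81 in LPtau, a difference of 1.83 (SE 0.51). Apcs, serum amyloid P, read 13.59, 13.57 and 13.49 in LP and 14.00, 14.15 and 13.97 in LPtau, a difference of 0.49 (SE 0.12), and C-reactive protein (Crp) had 0.62 (SE 0.17). Coagulation factors had 18 of 22 positive (median 0.13; 0.11 to 0.14 with 1 array left out), with factor XI (F11) at 0.50 (SE 0.17), protein C (Proc) at 0.24 (SE 0.10) and prothrombin (F2) at 0.23 (SE 0.10).

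The genes that handle taurine itself did not pass. Slc6a6, the taurine transporter, read 11.02, 10.87 and 10.93 in LP and 10.55, 10.49 and 10.27 in LPtau, a difference of -0.50 (SE 0.30) with all 4 probe sets of that sign and no overlap between the groups, and NPtau differed from NP by -0.45 (SE 0.30). Csad, the enzyme that makes hypotaurine, read 10.75, 11.31 and 11.01 in LP and 11.73, 11.69 and 11.54 in LPtau, a difference of 0.63 (SE 0.16) with a limma adjusted p of 0.253, and NPtau differed from NP by -0.29 (SE 0.16). Cdo1 read 12.25, 11.28 and 11.16 in LP and 11.99, 11.92 and 11.79 in LPtau, a difference of 0.34 (SE 0.29), with LP replicate 1 above all LPtau arrays. Baat had -0.03 (SE 0.10), and the bile acid hydroxylases Cyp7a1 and Cyp7b1 had -0.45 (SE 0.54) and -0.08 (SE 0.15). Cyp8b1, which makes cholic acid, read 9.05, 8.66 and 8.01 in LP and 9.40, 9.42 and 10.69 in LPtau, a difference of 1.26 (SE 0.36). Over the whole list 10 of 33 were positive (median -0.07; -0.08 to -0.05 with 1 array left out). Ahcy, which clears S-adenosylhomocysteine, had -0.39 (SE 0.14). Of the bile acid list 17 of 29 were positive (median 0.02; -0.02 to 0.11 with 1 array left out).

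Igf1, the growth factor that liver releases into blood, read 7.22, 7.16 and 7.22 in LP and 8.27, 8.45 and 8.65 in LPtau. The LP arrays were nearly alike and every LPtau array lay above them, and all 4 probe sets had that sign. The difference of 1.25 (SE 0.31) had a limma adjusted p of 0.245. The normal protein arrays, which share the estimate of the spread, stood at 8.40, 7.70 and 8.56 in NP and 7.59, 8.74 and 8.96 in NPtau. Igfbp7, a matrix-bound relative of the IGF carriers, had 0.76 (SE 0.12) with 2 of 3 probe sets of that sign, and Igfbp3, the main carrier in plasma, had 0.71 (SE 0.20). Igf2 and Igfbp1 differed little, at 0.05 (SE 0.10) and 0.11 (SE 0.09). Over the list 26 of 31 were positive (median 0.19; 0.13 without LPtau replicate 3 and 0.17 to 0.24 without any other array). All LPtau values lay above the LP values for 10 genes (32.3%) and below for 0, against 6.77% and 7.01% over all genes. The amino acid response genes and tRNA synthetases had 33 of 39 positive (median 0.22; 0.18 to 0.32 with 1 array left out). Atf5, a stress factor, had 1.01 (SE 0.28), the leucine tRNA synthetase Lars had 0.40 (SE 0.13), and Asns, asparagine synthetase and a standard reporter of amino acid shortage, had 0.14 (SE 0.12). Amino acid transporters had 22 of 33 positive (median 0.13; 0.24 without LPtau replicate 2, 0.05 without LPtau replicate 3 and 0.11 to 0.16 without any other array). Among them Slc36a4 had 1.05 (SE 0.18) and Slc3a1, a subunit of the cystine transporter, 1.45 (SE 0.32). Limma called 0 genes of these 3 lists, and the unadjusted p was under 0.05 for 6 higher and 0 lower IGF axis genes, 6 higher and 0 lower amino acid response genes and 3 higher and 0 lower transporter genes.

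Clock genes differed in both directions. Per3, of the repressing limb, read 6.06, 5.99 and 6.14 in LP and 5.57, 5.50 and 5.32 in LPtau, a difference of -0.60 (SE 0.09) with all 6 probe sets of that sign and a limma adjusted p of 0.0543. Tef, a factor that the clock drives, had -0.97 (SE 0.20). Cry1 and Bhlhe40, which also repress, had 0.66 (SE 0.16) and 1.24 (SE 0.38). The hour of tissue collection is not given in the labels, and limma called 0 of 23 genes, with an unadjusted p under 0.05 for 3 higher and 3 lower clock genes. Glucocorticoid genes had 19 of 26 positive (median 0.29; -0.05 without LP replicate 1, 0.13 without LPtau replicate 1 and 0.26 to 0.36 without any other array), with 18 positive and a median of 0.25 within females and 12 positive and a median of -0.06 within males.

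Several other large differences belonged to none of the lists. Klhl13, an adaptor of a ubiquitin ligase, read 9.96, 10.002 and 9.94 in LP and 8.04, 7.81 and 7.82 in LPtau, a difference of -2.08 (SE 0.36) with a limma adjusted p of 0.0776, and its groups were each tight. S100g, a calcium-binding protein, read 8.28, 7.93 and 7.97 in LP and 6.72, 6.37 and 6.07 in LPtau, a difference of -1.68 (SE 0.41). Lgals2, a galectin, had -1.25 (SE 0.28), Ajuba, a LIM domain protein, had -1.11 (SE 0.36), Ccser2 had -1.09 (SE 0.25) and the transcript 1810019D21Rik had -1.60 (SE 0.28). None of these passed.

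Lists with little net difference included the cytosolic ribosome (23 of 41 positive, median 0.01), nuclear receptors (20 of 37, median 0.07), imprinted growth genes (15 of 27, median 0.04) and genes with a sex bias in adult liver (16 of 33, median -0.02). Growth arrest and p53 targets (13 of 23, median 0.06) and oxidative stress (9 of 26, median -0.08) were similar. Genes of endoplasmic reticulum stress had 12 of 24 positive (median 0.04), with 22 positive and a median of 0.34 within females and 11 positive and a median of -0.12 within males. Heat shock genes had 10 of 20 positive (median 0.01), with 7 positive and a median of -0.12 within females and 13 positive and a median of 0.13 within males. The female values rest on 1 LPtau array and the male values on 1 LP array, so sex and the single array cannot be told apart. In the LPtau arrays the mean of the endoplasmic reticulum stress list relative to LP was -0.07, 0.41 and 0.02, highest in the female replicate 2. Hepatocyte maturation (27 of 39, median 0.13; 0.08 without LP replicate 2, 0.04 without LP replicate 3 and 0.10 to 0.15 without any other array), hypoxia (19 of 26, median 0.19; 0.31 without LPtau replicate 3 and 0.15 to 0.23 without any other array), insulin signalling (25 of 30, median 0.22; 0.15 to 0.23 with 1 array left out) and ERK regulators (19 of 26, median 0.19; 0.17 to 0.23 with 1 array left out) leaned slightly higher. Pancreas and gut genes, a check for other tissue, had 7 of 21 positive (median -0.10; -0.16 to -0.05 with 1 array left out) with 6 of 21 above the median level of all genes.

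**Figure D4:**
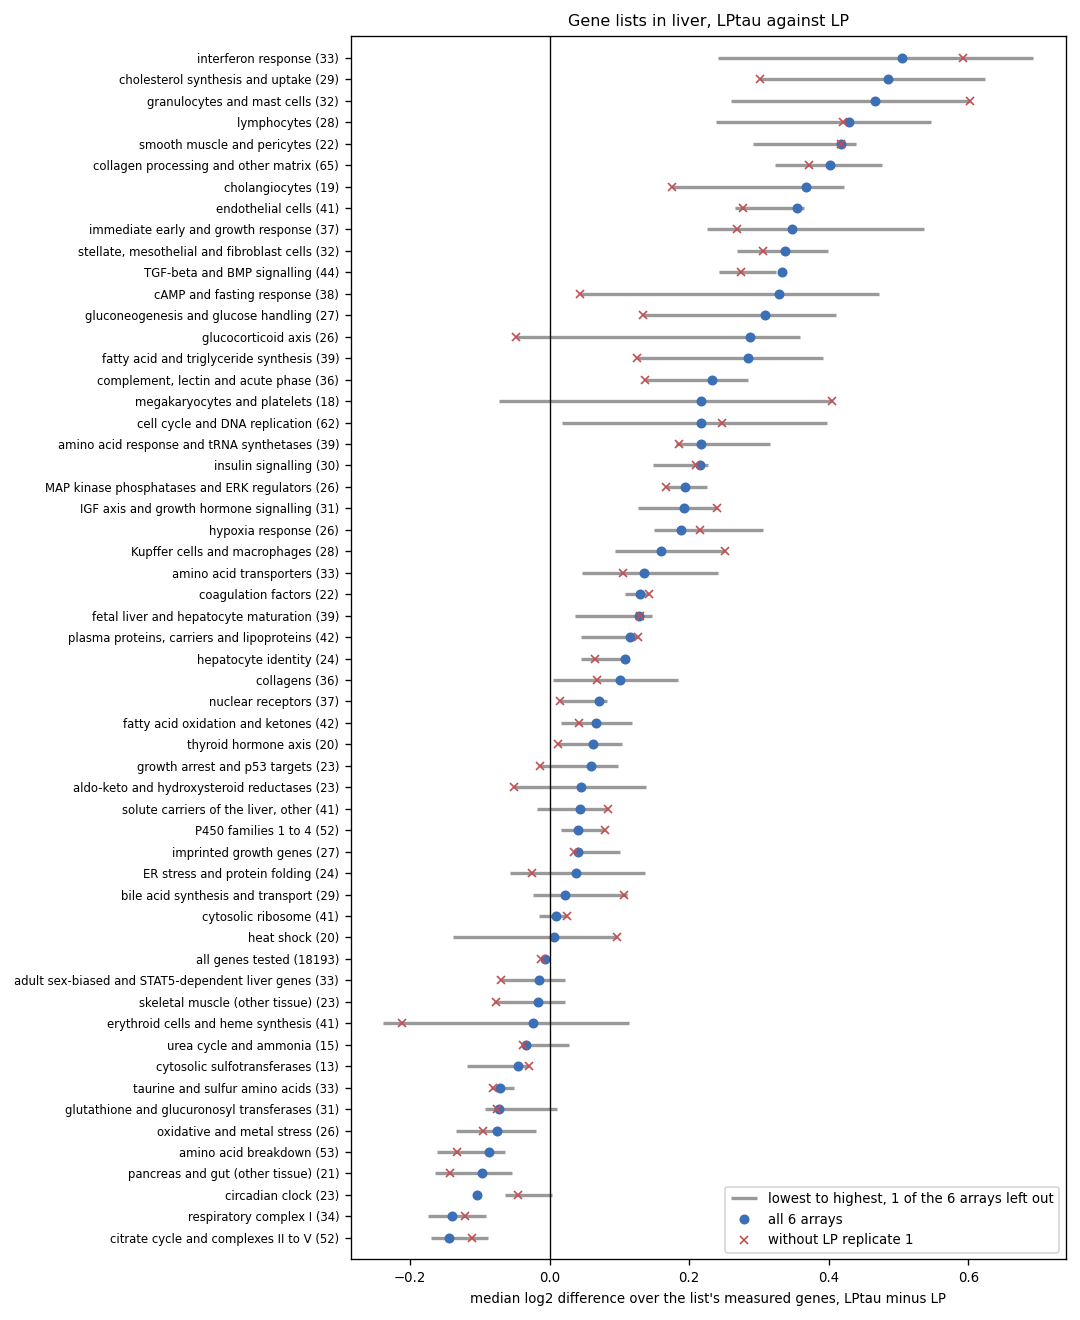
The median log2 difference between LPtau and LP (horizontal axis) is shown for each of the 55 gene lists and for all genes tested, with the number of measured genes in brackets, as dots for all 6 arrays, as crosses without LP replicate 1 and, for the lists, as bars from the lowest to the highest value with 1 of the 6 arrays left out. Lists of interferon, cholesterol and granulocyte genes lie highest at 0.50, 0.49 and 0.47, citrate cycle and complex I genes lowest at -0.14, and the cyclic AMP and glucocorticoid lists move to near 0 without that array, while the bars of the cell cycle, collagen and megakaryocyte lists reach to near 0 or below it.

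Taurine given with a normal protein diet was measured on other arrays, as NPtau against NP, and there limma called 0 genes (0% of those tested, with 500 below 0.05 before adjustment and 0.995 as the smallest adjusted p). The 12 genes called under low protein had differences near 0 or of the other sign, and 3 of the 12 had the same sign. Akr1c6 differed by 0.03 (SE 0.40), Sult3a1 by -0.20 (SE 0.34), Cyp2j5 by -0.04 (SE 0.30) and Hal by 0.18 (SE 0.16). Fars2, at -0.42 (SE 0.12), had the largest of these differences relative to its error, opposite to its rise under low protein. Across all 18193 genes the taurine differences under low and under normal protein had Pearson's r = -0.234 and Spearman's rho = -0.258, where genes are not independent replicates. The direct test of whether the taurine difference depended on the protein level, the interaction, called 0 genes in limma as well (0%, with 1540 below 0.05 before adjustment and 0.201 as the smallest adjusted p). The interaction count was 8 genes without LP replicate 1 and 4 without NPtau replicate 2. The 12 genes had interaction estimates with an adjusted p from 0.201 to 0.365, and that of Akr1c6 was 3.07 (SE 0.56). All 12 were also called in LP against NP, a comparison that uses the same LP arrays.

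In muscle of pups from the same diets LPtau against LP called 4 genes (0.022%), and the difference between the liver and the muscle response, tested in a fit of all 24 arrays, called 47 (0.258%). Of the 12 liver genes 8 were among the 47. These 12 were chosen by their liver difference, and the test reuses the same LP and LPtau liver arrays. It is therefore not separate evidence of the liver difference. Akr1c6 differed by 0.17 (SE 0.15) in muscle, and its liver difference less its muscle difference was 2.93 (SE 0.45, limma adjusted p of 0.0119). For Sult3a1 the muscle difference was 0.02 (SE 0.12) and the tissue difference 2.58 (SE 0.38, limma adjusted p of 0.00863). The other 6 were Abca8b, Cyp2j5, Pde6c, Serpina7, Slc23a3 and Sox4. For Rhbdd1 muscle gave 0.97 (SE 0.21) against 0.79 in liver, and the tissue difference of -0.17 (SE 0.25, limma adjusted p of 0.745) did not pass. Klf10, Fars2 and Hal did not pass either, and the error of Hal in muscle was large, at -0.57 (SE 1.32).

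**Figure D5:**
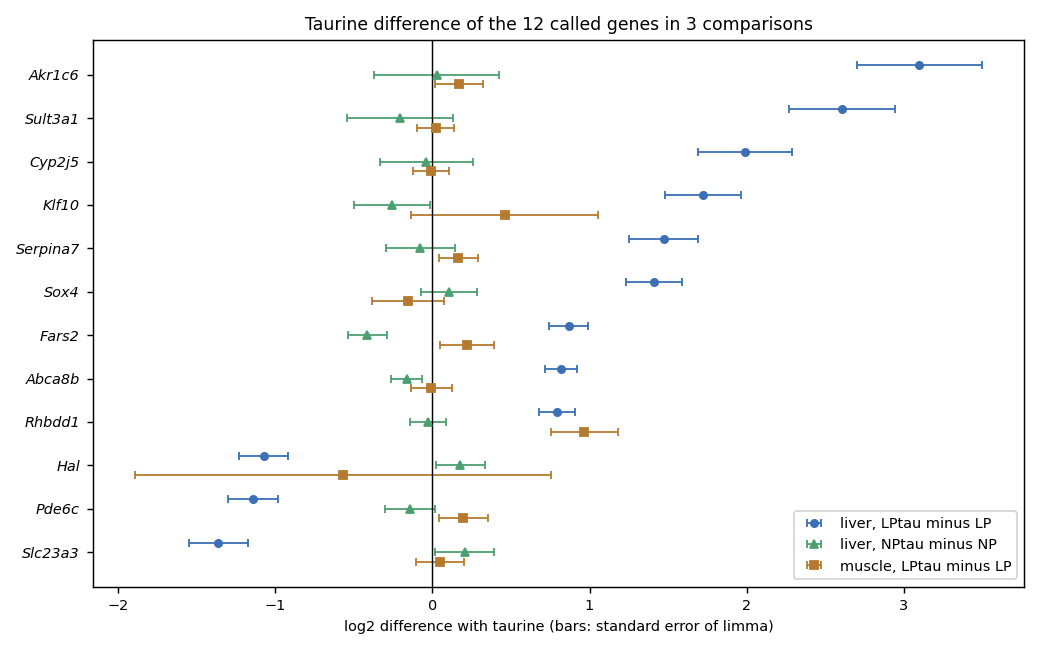
The log2 difference with taurine (horizontal axis, bars for the standard error of limma) is shown for the 12 called genes in liver under low protein, in liver under normal protein and in muscle under low protein. The liver differences under low protein run from -1.36 to 3.10, those under normal protein from -0.42 to 0.21, and Rhbdd1 in muscle stands at 0.97.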

How the data were processed

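Total RNA of liver and hindleg muscle was hybridised, after biotin labelling, to one-colour Affymetrix arrays of 45101 probe sets, 24 arrays in all. The deposited values are log2 expression values from RMA, and the submitters' processing notes name R 2.7.0 for the authors' work and list MAS5 without its role. Liver and muscle were normalized separately, per the labels, so levels were not compared between tissues, and no further normalization was applied. RMA makes the distributions of arrays alike and compresses low signals, so differences of dim genes are understated. Columns without a sample numbered 0.

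Of the probe sets 64 were controls, 34945 had 1 gene symbol, 932 several and 9160 none, from the platform annotation. The identifiers of 34741 were found in RefSeq genes of GRCm38.p6 and 0 symbols changed. A gene was represented by its brightest probe set (mean of the 12 liver arrays), which gave 18193 genes, 9010 of them with more than 1 probe set.

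The 12 liver arrays entered a linear model in limma 3.58.1 under R 4.3.3 (lmFit, contrasts.fit and eBayes) with a mean for each of 4 diets and no covariate. Calls required a p under 0.05 after Benjamini-Hochberg adjustment over all genes. For 1 gene alone, an exact two-sided permutation test of 3 arrays against 3 could not reach below 0.1, so precision is set by how few arrays there are. The tissue difference came from a limma fit of all 24 arrays, with 1 probe set per gene for both tissues. SE is the standard error of limma. The script was tested on simulated data. "Rose" and "fell" are used of called genes.

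Named are all called genes, the 15 largest rises and 15 largest falls among uncalled genes with an unadjusted p under 0.01, groups that do not overlap and a mean of at least 6, up to 4 genes with the smallest p of each of 55 lists, and 14 genes of taurine, growth and fasting. The members, lists and rules were chosen with earlier results of these data known, and list counts and medians are descriptions without a test. Replicate numbers did not pair the arrays.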

Additional observations from a re-analysis of the deposited data

Results flagged for a closer look

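The taurine difference under low protein differed between liver and muscle for 8 of the 12 genes called in liver, by a limma test of the liver difference less the muscle difference in a fit of all 24 arrays. That estimate was 2.93 for Akr1c6, 2.58 for Sult3a1, 2.00 for Cyp2j5, 1.57 for Sox4, 1.30 for Serpina7 and 0.83 for Abca8b, all higher in liver. It was -1.41 for Slc23a3 and -1.34 for Pde6c. The adjusted p values over all genes ran from 0.009 for Sult3a1 to 0.038 for Serpina7. Because the 12 genes were chosen by their liver difference and the same liver arrays enter this test, it is not separate evidence of that difference.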

How the results depend on the processing

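The count of 12 genes called in LPtau against LP was 4 with the sex of the pup as a covariate, 0 with cyclic loess, 0 with a second quantile normalization, 7 with the 6 LP and LPtau arrays alone, 20 with the mean over the probe sets of a gene, 0 with every probe set tested and 512 with array weights. It ran from 0 to 269 over the fits that left out 1 array. It was 14 with each array centred on its median, 9 with a mean level of at least 6 and 10 with a trended and robust spread. The replicate block gave 14 genes, of which 7 were among the 12, and the deviations of LP and LPtau arrays of the same number correlated at -0.211, -0.14 and -0.166. The count for the interaction was 0 in the fit reported, 1 with the mean over probe sets, 5 with array weights and 0 to 8 over the fits that left out 1 array. The count for NPtau against NP was 0 in every setting run. The cause of these changes was not tested.

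None of the 12 called genes changed sign, which their non-overlapping groups had fixed in advance for the fits that left out 1 array. All 12 of 12 were called without LP replicate 1 and with array weights. Of 124 genes in the text 118 kept their sign in every setting. Each of the others had a main difference smaller in size than its SE. The log2 difference of Baat became 0.0052 with the sex covariate and 0.20 with the mean over probe sets, the log2 difference of Cpt1a became -0.00634 with quantile normalization and -0.067 with the mean over probe sets, the log2 difference of Igf2 became -0.12 with the mean over probe sets, and the log2 difference of Ppargc1a became -0.010 with cyclic loess, -0.00179 with quantile normalization and -0.010 with array weights. Leaving out 1 array gave Baat -0.068 to 0.013, Cpt1a -0.037 to 0.15, Cyp7b1 -0.15 to 0.022, Pdk4 -0.90 to 0.22 and Ppargc1a -0.53 to 0.62. The medians of 38 of the 55 lists kept their sign in every setting, and the median of all genes ran from -0.023 to 0.062. Precision is limited by 3 arrays per group.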
